A study of Mus musculus with 8 samples.

Results

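The genes described here carry a cell through DNA replication and mitosis. They comprise 49 genes: 19 of DNA replication, 18 of mitosis, 11 that govern entry into the cycle from G1, and Stmn1, which encodes the microtubule regulator stathmin. The genes were listed by name with earlier results of these data known. A listed gene was included when a probe set of the array table carried its symbol alone, whatever its signal. This held for 46 of the 49, with 66 probe sets, out of 8251 genes and 12422 probe sets in the whole table, and no probe set of Tyms, Ccnb1 or Bub1b was used here. RNA of neonatal C57/Bl6 mice, aged 6 days, was measured on oligonucleotide arrays, and neither group carried a named genetic change or treatment. One group was the tips of secondary alveolar septa, the ridges that subdivide the air spaces, cut by laser from frozen sections; 10000 tips were gathered from the sections of many animals of different litters, so single animals are not resolved. The other was whole lung pooled from mice of the same age. Each group had 2 RNA samples, from separate experiments on different litters, and each RNA was hybridised to 2 arrays at different times, which gave 8 arrays. The tip samples are described in one label field as whole lung, so groups were taken from the titles.

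Cells that prepare to divide load the Mcm helicase on DNA in G1, and Cdc6 and Cdt1 are the loading factors. DNA is then copied in S phase with the sliding clamp Pcna, and cyclin B with Cdk1 drives entry into mitosis. There the checkpoint proteins Bub1 and Mad2l1 hold back Cdc20 until every chromosome is attached to the spindle. Cyclins D and E with Cdk4 and Cdk2 release E2F factors from Rb1 to start a cycle, and the inhibitors Cdkn1a, Cdkn1b and Cdkn1c oppose these kinases. Secondary septation is a period of postnatal growth in which several lung cell types still divide.

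After the authors' scaling, the median signal was 501 to 572 for lung and 786 to 923 for tips. A background level was set for each array at the 95th percentile over its 19 probe sets against microbial transcripts, and was 314 to 568 for lung and 487 to 1244 for tips. Arrays of one RNA differed by a median of 0.34 and 0.31 on the log2 scale over the members in lung and by 0.63 and 0.43 in tips, for experiments 1 and 2. The defining markers of myofibroblasts, alveolar type II cells and endothelium were above background on at least 1 array. Their summed signal was 63220 to 120189 on lung arrays and 87706 to 205987 on tip arrays for 9 myofibroblast genes, and 84252 to 130976 and 360241 to 369874 for 7 endothelial genes. For 3 type II genes it was 22518 to 38019 and 99039 to 115006. Of those tested 5 of 9 myofibroblast, 4 of 7 endothelial and 1 of 3 type II genes (Sftpc) were higher and 1, the endothelial gene Tek, was lower (limma), where 14.6% of all genes tested were higher and 15.1% lower. Summed signal of 9 macrophage genes was 25449 to 40386 in tips and 44314 to 64961 in lung. Of the 7 tested 2, Mrc1 and Ctss, fell and 0 rose, but the median difference over the 9 was 0.59, so sum and median point in opposite directions. That of 7 erythroid genes overlapped, at 17389 to 82102 and 8455 to 31838, with Slc4a1 and Klf1 higher. In both groups RNA of many cells is mixed, so fewer dividing cells and less RNA per cell cannot be told apart, and the part of these cell types in the results below was not tested.

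Of the 39 members bright enough to be tested, 4 were higher and 6 lower in tips at an adjusted p under 0.05 (limma, Benjamini-Hochberg over all 7453 probe sets tested). Each gene is represented by its brightest probe set, and each difference is log2 signal in tips less that in lung, ± its standard error (2 RNA samples a group). The background of such calls was high: of 5642 genes tested, 14.6% were higher and 15.1% lower, so the counts over all members were near it and nothing particular to these genes is read from them. The 6 lower members were the clamp gene Pcna and the mitotic genes Bub1, Mad2l1, Aurkb, Top2a and Plk1. The 4 higher ones were the helicase genes Mcm2 and Mcm7, the G1 kinase gene Cdk4 and the kinase inhibitor gene Cdkn1a. Thus 5 of 15 tested mitotic members fell and 0 rose, while of 13 tested replication members 1 fell and 2 rose, and of 10 tested G1 regulators 0 fell and 2 rose (limma). Leaving out 1 RNA at a time gave 0 higher and 1 lower without lung 1, 0 and 2 without lung 2, 5 and 7 without tips 1, and 6 and 11 without tips 2, where the number is that of the experiment. With 1 RNA left in a group its spread is assumed to be that of the other group, and calls over all probe sets went from 2106 to 349 and 556 without lung 1 and lung 2. The differences of Top2a, for example, were -1.30 and -1.75 there. Of the 10, Pcna alone passed under all of its alternatives, 21 in number.

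**Figure D1:**
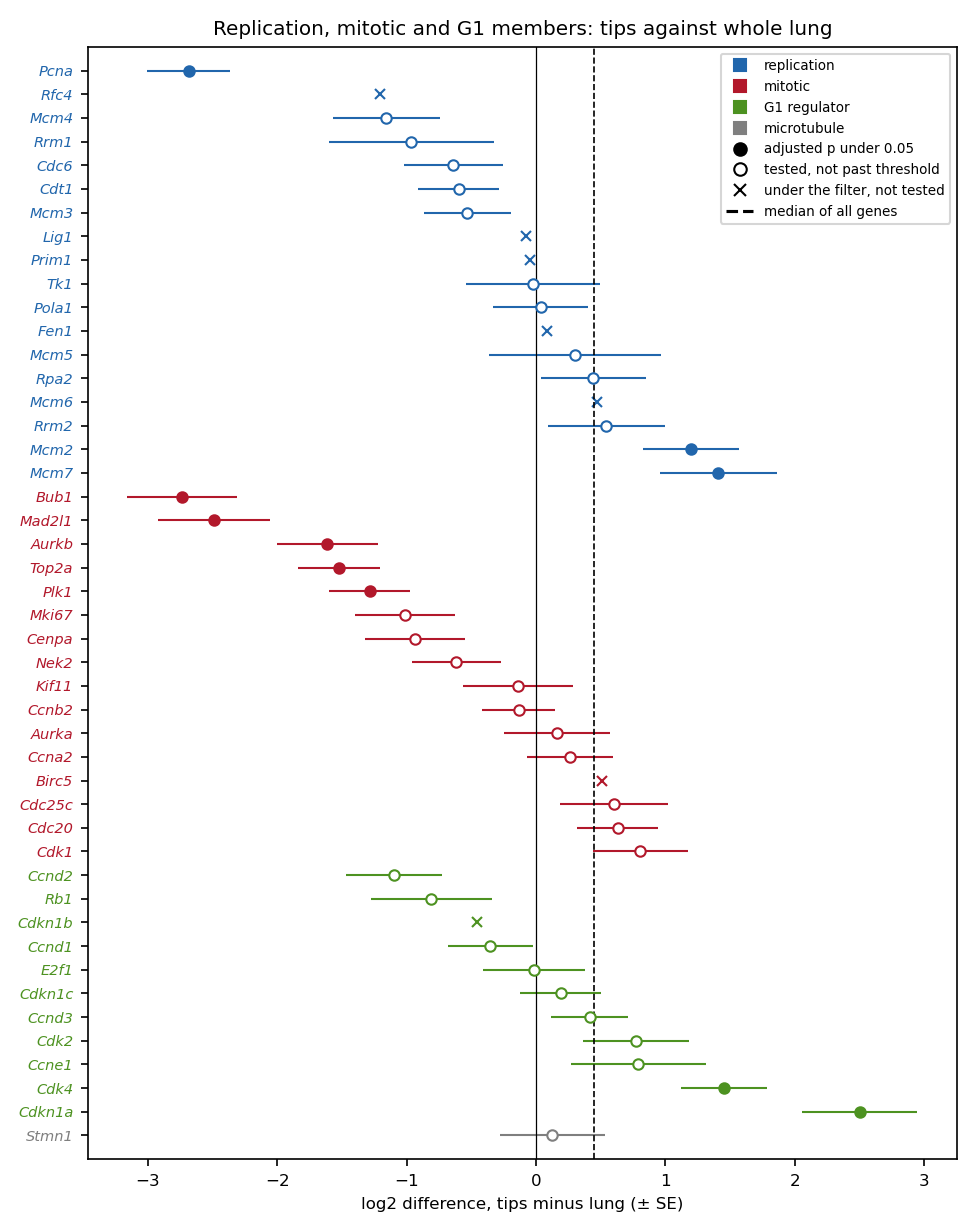
Log2 difference of tips minus lung for the brightest probe set of each of 46 members, with the standard error where the probe set was tested; filled points passed an adjusted p under 0.05, crosses lay under the filter on dim probe sets. The dashed line is the median of all 8251 genes, 0.44, and most mitotic members and most replication members lie to its left. Bub1, Rb1 and Cdkn1a are drawn at their fitted difference, although no tip array (Bub1, Rb1) or no lung array (Cdkn1a) was above background. Among the crosses, Mcm6, Rfc4, Lig1, Prim1, Fen1 and Cdkn1b had no tip array above background.

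The promoters of these genes carry known cycle motifs, and the letters around their start sites are shown because the classes described here differ in them. In the RefSeq promoter table of build GRCm38.p6, 40 of the 49 members had an entry of 300 bases, 250 before to 50 after the start, and some had several, 46 in all. No entry was matched for Mcm4, Ccna2, Cdc25c, Aurkb, Ccnd1, Ccnd2, Cdkn1c, Rb1 and Stmn1. The E2F motif was searched as TTTCCCGC, TTTCGCGC, TTTGCCGC or TTTGGCGC, the cell cycle homology region (CHR) as TTTGAA and the CCAAT box as CCAAT, each on both strands; E2F matches on opposite strands can overlap each other. E2F letters stood in 8 of 22 replication promoters (36.4%), in 1 of 15 mitotic promoters (6.67%) and in 744 of all 32841 promoters (2.27%). CHR letters stood in 10 of 15 mitotic promoters (66.7%), in 2 of 22 replication promoters (9.09%) and in 17.9% of all. CCAAT letters stood in 13 of 15 mitotic promoters (86.7%), 12 of 22 replication promoters (54.5%) and 37.4% of all. A match is a description of these letters and no measured binding site. The 250 bases before the start follow for Pcna, Bub1 and Mad2l1, which fell, for Mcm7, which was higher, and for Top2a and Cdc20, mitotic genes with differences of opposite sign, of which the first alone passed. They run 5′ to 3′ along the gene, and capitals mark matches to any of the 3 motifs on either strand.
Pcna (chr2:132253181-132253430, minus strand): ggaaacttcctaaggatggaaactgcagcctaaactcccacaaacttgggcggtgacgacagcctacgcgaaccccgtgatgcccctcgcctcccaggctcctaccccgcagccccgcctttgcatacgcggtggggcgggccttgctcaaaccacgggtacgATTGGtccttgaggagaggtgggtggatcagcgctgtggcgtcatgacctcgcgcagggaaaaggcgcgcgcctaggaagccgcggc
Mcm7 (chr5:138171884-138172133, minus strand): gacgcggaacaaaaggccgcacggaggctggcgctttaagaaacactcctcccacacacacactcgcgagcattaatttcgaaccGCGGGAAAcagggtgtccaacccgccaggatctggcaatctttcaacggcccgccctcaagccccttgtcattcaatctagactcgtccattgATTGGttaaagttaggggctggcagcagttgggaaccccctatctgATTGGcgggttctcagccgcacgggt
Bub1 (chr2:127831860-127832109, minus strand): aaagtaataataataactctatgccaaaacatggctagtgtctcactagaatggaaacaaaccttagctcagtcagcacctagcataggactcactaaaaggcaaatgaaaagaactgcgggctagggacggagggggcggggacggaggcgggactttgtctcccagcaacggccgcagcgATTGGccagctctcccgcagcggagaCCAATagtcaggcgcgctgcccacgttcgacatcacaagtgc
Mad2l1 (chr6:66534971-66535220, plus strand): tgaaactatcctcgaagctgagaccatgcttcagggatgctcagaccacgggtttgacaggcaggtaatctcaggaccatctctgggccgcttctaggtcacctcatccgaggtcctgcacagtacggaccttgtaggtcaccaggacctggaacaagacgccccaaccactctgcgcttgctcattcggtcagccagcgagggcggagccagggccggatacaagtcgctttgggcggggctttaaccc
Top2a (chr11:99024190-99024439, minus strand): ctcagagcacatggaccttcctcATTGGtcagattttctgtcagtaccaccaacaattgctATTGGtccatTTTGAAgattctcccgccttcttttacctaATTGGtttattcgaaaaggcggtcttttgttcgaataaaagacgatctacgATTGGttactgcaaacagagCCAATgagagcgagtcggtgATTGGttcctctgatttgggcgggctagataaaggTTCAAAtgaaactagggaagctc
Cdc20 (chr4:118437344-118437593, minus strand): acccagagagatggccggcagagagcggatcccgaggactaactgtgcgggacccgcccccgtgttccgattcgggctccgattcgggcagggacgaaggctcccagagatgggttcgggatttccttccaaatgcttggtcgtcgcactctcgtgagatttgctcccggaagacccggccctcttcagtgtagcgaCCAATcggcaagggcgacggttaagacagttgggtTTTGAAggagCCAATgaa
Of Mcm7 the table holds a second entry, without E2F letters, that is not printed. The entry shown has E2F letters as its first capitals, on the opposite strand, and Top2a and Cdc20 each show CHR letters close to the start. In the windows of Pcna and Bub1 the capitals are CCAAT letters alone, and that of Mad2l1 has no capitals.

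The replication clamp gave the firmest decrease. Pcna encodes the ring that tethers DNA polymerase to its template. Its signal was 29437 and 22459 on the lung arrays of experiment 1 and 21773 and 16962 on those of experiment 2. On the tip arrays it was 2902 and 2654 in experiment 1 and 4905 and 3250 in experiment 2. Every tip array lay below every lung array. The difference was -2.68 ± 0.32 (limma adjusted p = 0.00132), with -3.14 in experiment 1 and -2.22 in experiment 2. Only 125 of the 5642 genes tested had a lower value.

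The 6 genes of the Mcm helicase, which form one ring, did not move together. Mcm2 had a signal of 1240, 815, 561 and 742 on the lung arrays and of 2258, 1495, 2465 and 2129 on the tip arrays, given in the order experiment 1 and then experiment 2. All tip arrays lay above all lung arrays, and the difference was 1.20 ± 0.37 (limma adjusted p = 0.0414). Mcm7 had 209, 317, 119 and 662 in lung, where 1 of 4 arrays was above background, and 671, 2141, 717 and 962 in tips. Its groups came close without overlapping, and the difference was 1.41 ± 0.45 (limma adjusted p = 0.0459). Both calls needed the filter on dim probe sets: without it Mcm2 and Mcm7 did not pass (limma adjusted p = 0.0649 and 0.0750). Neither Mcm2 nor Mcm7 passed with quantile normalization, median centring or cyclic loess, nor without either lung RNA, and Mcm7 passed under 6 of 20 alternatives. Mcm4 pointed the other way, with 1184, 1244, 1298 and 955 in lung and 169, 666, 301 and 877 in tips. No tip array reached a lung array, but only 1 tip array was above background and the difference of -1.16 ± 0.41 missed the threshold (limma adjusted p = 0.0639). Under quantile normalization, median centring and cyclic loess it passed as lower. Mcm3 gave -0.53 ± 0.34 and Mcm5 0.30 ± 0.67, and Mcm6 lay under the filter, above background on 1 lung array and 0 tip arrays.

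Other replication members seldom separated the groups. The helicase loaders Cdc6 and Cdt1 gave -0.64 ± 0.38 and -0.60 ± 0.31 (limma adjusted p = 0.223 and 0.171). Rfc4, a subunit of the clamp loader, was too dim to be tested, but its groups did not overlap: 554, 388, 501 and 561 in lung and 189, 72.5, 155 and 121 in tips. It was above background on 2 lung arrays and 0 tip arrays. Among the polymerase and strand-joining genes, Pola1 gave 0.04 ± 0.37 and Rpa2, of the single-strand binding complex, 0.44 ± 0.41. Prim1, Lig1 and the flap nuclease gene Fen1 lay under the filter, with 0 tip arrays above background.

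The nucleotide supply gene Rrm1, the large subunit of ribonucleotide reductase, differed between the experiments. In lung it read 2216, 1726, 2136 and 1938. In tips it read 338 and 353 in experiment 1 but 2762 and 1894 in experiment 2. The tips of experiment 1 thus lay far below lung and those of experiment 2 at its level, which gave -2.09 and 0.16 and, over both, -0.96 ± 0.64 (limma adjusted p = 0.268). The difference between experiments was not tested. The small subunit gene Rrm2 gave 0.34 and 0.75 in experiments 1 and 2, and the thymidine kinase gene Tk1 -0.96 and 0.92.

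Both spindle checkpoint genes measured among the members, Bub1 and Mad2l1, fell. Bub1, a checkpoint kinase of the kinetochore, had a signal of 3403, 2954, 3179 and 2657 in lung. In tips this probe set was under background on all 4 arrays, at 273, 132, 378 and 682, while a dimmer one was above it on 1 tip array. Lung was at least 3.39-fold brighter, taken against the background of each tip array (limma adjusted p = 0.00305). Mad2l1, which binds and restrains Cdc20, had 16538 and 15242 in lung of experiment 1 and 8052 and 6497 in experiment 2. The tip arrays read 3026, 1930, 1411 and 1217, all below the lowest lung array, and lung of experiment 1 stood above lung of experiment 2. The difference was -2.49 ± 0.43 (limma adjusted p = 0.00476), with -2.64 and -2.34 in the experiments. Bub1 did not pass without either lung RNA, and Mad2l1 not without that of experiment 1. Cdc20, the activator of the anaphase-promoting complex that the checkpoint restrains, went the other way without passing, at 0.63 ± 0.31 (limma adjusted p = 0.149). Its lung arrays read 2415, 1855, 1858 and 1917 and its tip arrays 3347, 3765, 2662 and 3039, so that all tip arrays were the higher ones.

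Further mitotic enzymes, Aurkb, Top2a and Plk1, fell as well. Aurkb, the kinase of the chromosomal passenger complex, had 1899, 1678, 2132 and 1143 in lung and 594, 215, 514 and 551 in tips, where 1 of 4 arrays was above background. The groups did not overlap and the difference was -1.61 ± 0.39 (limma adjusted p = 0.0172). Top2a, the topoisomerase that untangles chromosomes, had 6718, 4903, 4651 and 3728 in lung and 1080, 2124, 2210 and 1287 in tips. All 8 values were above background, and the difference was -1.52 ± 0.32 (limma adjusted p = 0.00928). Plk1, a kinase with roles from mitotic entry to cell division, had 9498, 10006, 6622 and 6417 in lung and 3043, 3105, 3621 and 3013 in tips, a difference of -1.28 ± 0.31 (limma adjusted p = 0.0176). These values come from a probe set whose name marks probes that related transcripts can share, and the further probe sets of Plk1 gave 0.86 ± 0.39 (limma adjusted p = 0.125) or lay under background on all 8 arrays. None of the 3 passed when either lung RNA was left out, and Aurkb did not pass without array 2 of the tip RNA of experiment 1, at -1.36 (limma adjusted p = 0.0515).

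**Figure D2:**
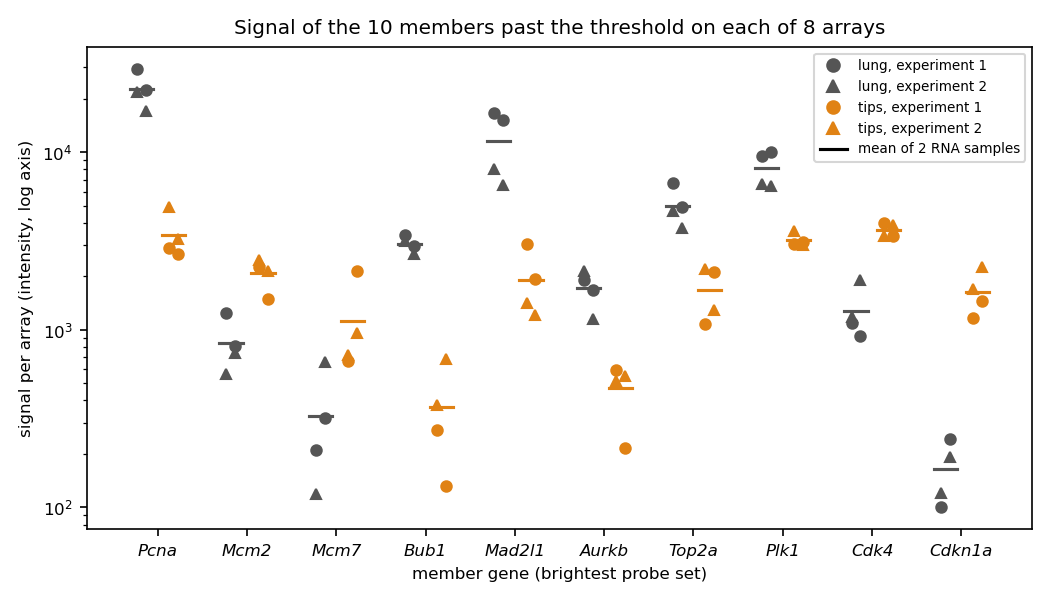
Signal of the 10 members past the threshold on each array, on a log axis, with circles for experiment 1, triangles for experiment 2 and bars for the mean of the RNA samples. In each of the 10 genes the 4 tip arrays and the 4 lung arrays do not overlap. Bub1 in tips and Cdkn1a in lung lie under the background of their arrays.

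The cyclins and the kinase that drive mitosis did not share these decreases. Ccnb2, which encodes cyclin B2, had 7522, 9923, 6894 and 10394 in lung and 7200, 8801, 6515 and 8887 in tips, and the groups lay over each other. The difference was -0.13 ± 0.28 (limma adjusted p = 0.741). Ccna2, the cyclin of S phase and early mitosis, gave 0.26 ± 0.33. Cdk1, the mitotic kinase itself, had 1093, 453, 522 and 939 in lung and 1487, 1150, 1579 and 1241 in tips. All tip arrays were above all lung arrays, at 0.81 ± 0.37, but the threshold was missed (limma adjusted p = 0.125). Its activating phosphatase gene Cdc25c gave 0.60 ± 0.42. The other mitotic members lay between the 2 patterns: Mki67, the nuclear antigen used to count cycling cells, at -1.01 ± 0.39 (limma adjusted p = 0.0784), the centromere histone gene Cenpa at -0.93 ± 0.39 (0.0973) and the kinase gene Nek2 at -0.61 ± 0.34. Aurka and the spindle motor gene Kif11 gave 0.16 ± 0.41 and -0.14 ± 0.42, and Birc5, of the passenger complex, lay under the filter at 0.51. Mki67 passed as lower with the experiment as a replicate block, where 7 members were lower in place of 6 (limma adjusted p = 0.0315).

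Replication and mitotic members were set against each other by the median of all measured members of each class, tested or not. The median was -0.03 over 18 replication members and -0.38 over 16 mitotic members, beside 0.44 over all 8251 genes, so the classes stood 0.34 apart. Under the filter on dim probe sets lay 5 of these replication members but only 1 of the mitotic ones. By experiment the gap was 0.29 and 0.30, but it was 0.0637 with lung 2 left out and 0.11 with tips 1 left out. By array pair it was 1.03 and 0.05 in experiment 1 and 0.25 and 0.37 in experiment 2, with replication above mitotic in all 4. The members were chosen by name with earlier results known, and no test was made of the gap. It shrank to 0.12 when only tested probe sets were used, by their median in each gene. It was 0.10 with Stmn1 put in the mitotic class and Ccna2, Top2a and Mki67, which are also transcribed in S phase, left out. Both medians lay below that of all genes in each array pair. That reference includes dim genes, as 2609 of the 8251 lay under the filter. Over probe sets the median difference was 0.47 without a filter, 0.35 with it and 0.20 with a filter at the 60th percentile. The part of brightness in the distance of the members from all genes was not tested. Quantile normalization, median centring and cyclic loess, which brought the median of all genes to 0.09, -0.02 and 0.05, gave -0.47, -0.54 and -0.55 for replication and -0.71, -1.01 and -0.68 for mitotic members.

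**Figure D3:**
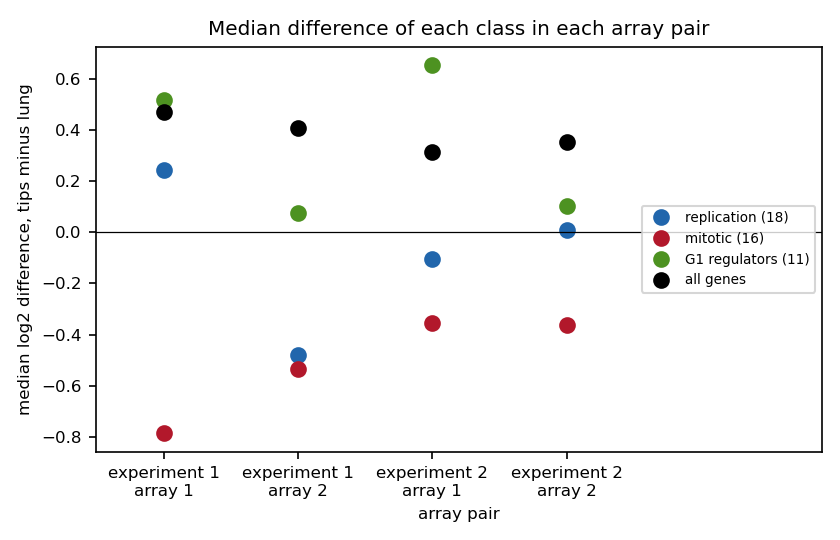
Median log2 difference of tips minus lung of each class in each of the 4 array pairs (tip and lung arrays of the same experiment and array number), over all measured members of the class and over all genes. The mitotic median is the lowest in every pair, from -0.79 to -0.35, and the replication median lies between -0.48 and 0.24.

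Counted without a test over all measured genes, 8 of 46 members had every tip array above every lung array, against 22.8% of all 8251 genes, and 8 had every tip array below, against 13.7%. The 8 below were the 6 called ones, Mcm4 and Rfc4, and 5 of them were mitotic. Of the 8 above, 4 were G1 regulators. Both counts lie within a few genes of that background.

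Among G1 regulators, an inhibitor and a kinase were called higher. Of the 5642 genes tested, 36 had a higher value than the inhibitor gene Cdkn1a and 510 a higher value than the kinase gene Cdk4. Cdkn1a, which encodes p21, an inhibitor of cyclin-dependent kinases, was under background on all 4 lung arrays by its brightest probe set, at 100, 242, 121 and 193; a dimmer one was above it on 1. In tips it was above background on all 4, at 1161, 1458, 1685 and 2257. Tips were at least 3.08-fold brighter, a bound set by the background of the lung arrays (limma adjusted p = 0.00538). Cdk4, the partner of D-type cyclins, had 1098, 921, 1178 and 1918 in lung and 3984, 3364, 3369 and 3882 in tips. The groups did not overlap and the difference was 1.45 ± 0.33 (limma adjusted p = 0.0138). With array 2 of each RNA alone, Cdk4 missed the threshold (limma adjusted p = 0.0545). A dimmer probe set of Cdk4, under the filter, gave -0.30 in experiment 1 and 1.26 in experiment 2. Median centring ended the call of Cdk4, and neither gene passed with 1 lung RNA left, although the difference of Cdk4 was then 1.19 and 1.71. Cdkn1a also failed when all values under 792 or 1244, the highest background levels of any array, were set to that level.

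None of the D-type cyclins, which switch on Cdk4, passed the threshold. Ccnd2 had 1275, 1679, 1540 and 1871 in lung and 1891, 131, 819 and 616 in tips. One tip array exceeded all lung arrays while the other 3 lay below them, and the difference of -1.10 ± 0.37 came close to the threshold (limma adjusted p = 0.0530). With quantile normalization, median centring and cyclic loess Ccnd2 passed as lower. Ccnd3 gave 0.42 ± 0.30 with all tip arrays above lung, and Ccnd1 -0.35 ± 0.33. Cyclin E and its kinase, Ccne1 and Cdk2, gave 0.79 ± 0.52 and 0.77 ± 0.41. Rb1, which holds E2F in check, had 971, 840, 1015 and 307 in lung and 101, 996, 130 and 630 in tips, with the groups overlapping. It was above background on 3 lung arrays and 0 tip arrays and did not pass (limma adjusted p = 0.209). E2f1 gave -0.02 ± 0.39 and the inhibitor gene Cdkn1c 0.19 ± 0.31, while Cdkn1b lay under the filter, above background on 2 lung arrays and 0 tip arrays. Stmn1 had 1444, 1440, 1375 and 1289 in lung and 2447, 397, 2098 and 2313 in tips. Its tip array 2 of experiment 1 was alone below lung, and the difference was 0.12 ± 0.41.

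Of the 46 members, 18 had several probe sets, and these did not always agree. In 8 of them the signs were mixed: Bub1, Ccnd1, Lig1, Mcm3, Mki67, Plk1, Rrm1 and Tk1. Only in Mki67 did a further probe set pass, and its name marks a set for which probe selection rules were relaxed. The brightest probe set of Mki67 had 4544, 3188, 5179 and 4383 in lung and 1657, 1140, 3388 and 2614 in tips. The further one had 546, 682, 855 and 710 in lung and 3264, 2701, 1266 and 1452 in tips. It passed as higher at 1.37 ± 0.43 (limma adjusted p = 0.0443). Both passed, in opposite directions, with the experiment as a replicate block (limma adjusted p = 0.0315 and 0.0247). For Ccnd1 the brightest probe set gave -0.35 and the other 0.80 ± 0.34 (limma adjusted p = 0.103), with all its tip arrays above lung. For Bub1, Lig1, Rrm1 and Tk1 the further probe sets lay under the filter. One of Bub1 and those of Lig1 and Rrm1 were above background on 0 of 8 arrays, and that of Tk1 on 1, so their signs carry little. A dim probe set of Cdc25c, not tested, was above background on 2 tip arrays and 0 lung arrays and at least 1.80-fold brighter in tips, beside 0.60 on the log2 scale for the brightest. The other probe set of Cdkn1a, above background on 1 lung array and 1 tip array, gave 0.99 ± 0.52 (limma adjusted p = 0.172) with all its tip arrays above lung. The 2 probe sets of Cdt1 gave -0.60 and -0.83. The brightest probe sets of Cdt1 and E2f1, like that of Plk1, have names that mark probes related transcripts can share. The ratio of the 3′ to the middle control probe set of Gapdh was 0.79 to 1.07 on lung arrays and 1.70 to 2.72 on tip arrays, and that of the actin control 16.5 to 24.8 and 9.23 to 12.4. These ratios to the middle moved in opposite directions. The ratio of the 3′ to the 5′ control probe set of Gapdh was 1.95 to 5.49 on lung arrays and 4.18 to 12.8 on tip arrays. For actin it was 38.8 to 104 and 23.0 to 139. All of these ratios compare parts of one transcript, and their part in the disagreement of probe sets was not tested.

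**Figure D4:**
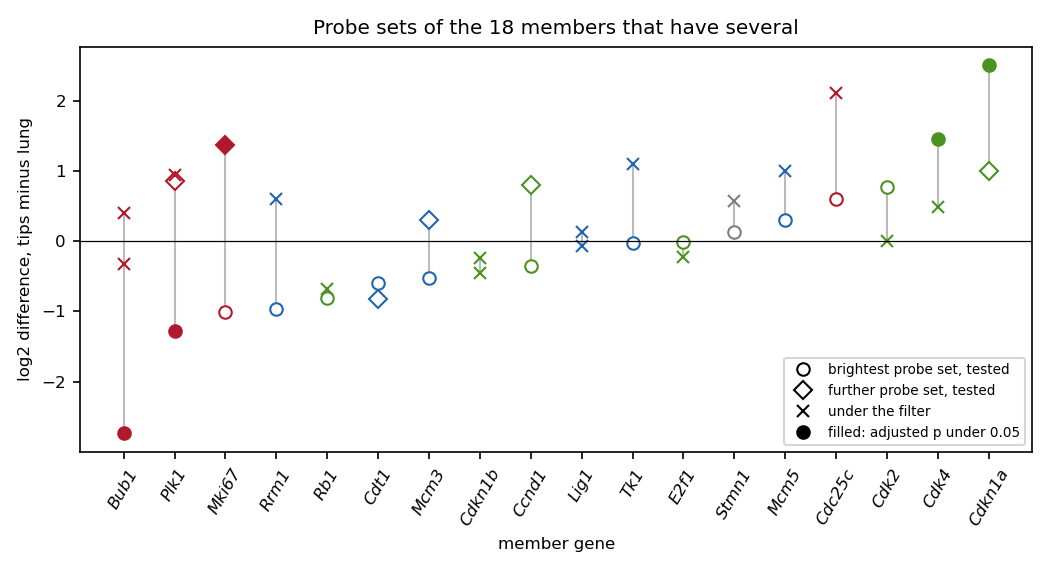
Log2 difference of tips minus lung for every probe set of the 18 members with several, coloured by class as replication (blue), mitotic (red), G1 regulator (green) and microtubule (grey); a line joins the probe sets of a gene. The tested probe sets of Plk1 and Mki67 lie on both sides of zero and those of Cdkn1a above it; crosses are dim probe sets, many at background.

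Other genes of the same pathway were counted against the same background, 14.6% higher and 15.1% lower over all genes tested, and nothing particular to the lists is read from the counts. Of 31 further replication genes tested, 4 rose and 7 fell (limma). The polymerase gene Pole3 rose by 1.20 ± 0.32, Pola2 also rose (limma adjusted p = 0.0248), and the chromatin assembly gene Chaf1b rose by 1.45 ± 0.43. Pola2 was uneven in tips, at 2673 and 750 in experiment 1 and 2697 and 729 in experiment 2, with 2 tip arrays above background. Pole4, the histone mRNA binding gene Slbp and the deoxycytidine kinase gene Dck differed by -1.74 ± 0.33, -1.97 ± 0.39 and -3.03 ± 0.64. Slbp and Dck were each above background on 1 tip array, and Dck gave -4.62 in experiment 1 and -1.44 in experiment 2. Of 41 further mitotic genes tested, 4 rose and 9 fell. The cohesin gene Stag2 gave -2.74 ± 0.29, the cytokinesis gene Ect2 -2.51 ± 0.34 and the centriole kinase gene Plk4 -2.25 ± 0.33. Those that rose included Foxm1, a transcription factor for mitotic genes, at 1.40 ± 0.37, Anapc5, of the anaphase-promoting complex, at 1.04 ± 0.29, and the kinetochore gene Ndc80, at least 1.94-fold brighter in tips, since its lung signal reached background on 0 of 4 arrays. The checkpoint gene Bub3, a partner of Bub1, was among the 9 that fell. Of 21 further G1 genes, 2 rose, Gadd45b by 1.67 ± 0.38 and Mnat1 by 1.29 ± 0.38, and 7 fell, among them Ccng2, Cul1 and E2f8 at -2.32 ± 0.29, -1.85 ± 0.33 and -1.75 ± 0.33. The genes given with values had limma adjusted p between 0.00105 and 0.0369. The probe sets of Dck, E2f8 and Gadd45b have names that mark probes related transcripts can share. That of Pola2 has the mark for relaxed probe selection rules. The median over all measured genes of the 3 lists was -0.07, -0.14 and -0.42, beside 0.44 for all genes.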

How the data were processed

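Arrays of 4 RNA samples were compared, 2 of tips and 2 of lung, with 2 arrays each. The deposited values are linear intensities, a signal for each probe set; MAS5 is named in the submitters' processing notes, and the arrays were already at a common level. Per the labels' protocols RNA was amplified before labelling; a step is written for all tip arrays and 1 lung array, and the design text says both tissues were amplified in parallel. A build was not stated.

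Each array was scaled to a trimmed mean of 1501 (2% left out at each end), an offset of 150 was added and log2 taken, which understates changes of dim genes. Control probe sets and those under the 40th percentile of mean log2 were left out, leaving 7453. Arrays of an RNA were averaged, and tips were compared with lung in limma 3.58.1 (run in R 4.3.3; eBayes used a trend on mean level; 2 residual and 7.05 prior degrees of freedom). Precision is limited by the number of RNA samples, 2 a group, and the median standard error was 0.40. A run on simulated data used independent noise with the spread seen in these RNA samples. It checks the running of the procedure and cannot give its error rate in these data. Of 12488 probe sets, 10855 had 1 symbol, 396 several and 1237 none; 10839 symbols were updated by gene ID.

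The experiment number marks shared preparation in the design text, so it pairs RNA samples; deviations of tips and lung from their means correlated at 0.0452. Members and lists were chosen with earlier results of these data known. Named genes were all members past the threshold, the 2 largest differences each way in each class, and up to 3 genes each way, by smallest p, of each further list. Alternatives changed scaling, offset, filter, floor, eBayes settings, arrays, pairing and RNA samples. Lists of airway genes (2 of 4 tested higher, 0 lower) and lymphocyte genes (3 of 6 higher, 1 lower) were counted as well.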

Additional observations from a re-analysis of the deposited data

Results flagged for a closer look

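On the log2 scale 10 member values stood apart from the other 3 arrays of their group, with a gap to the nearest array that took up more of the group's range than Dixon's 95% limit. With 92 such groups looked at, chance gives about 1 in 20. Arrays of one RNA are not independent, so this compares hybridisations. On lung arrays these were Mcm5 at 130 on array 2 of experiment 2 (720 to 886 on the others), Lig1 at 1692 on array 2 of experiment 1 (187 to 281) and Cdc20 at 2415 on array 1 of experiment 1 (1855 to 1917). On tip array 1 of experiment 1 they were Aurka at 2756 (759 to 927), Nek2 at 2954 (1462 to 1607) and Cdkn1b at 627 (136 to 176). On tip array 2 of experiment 1 they were Aurkb at 215 (514 to 594), Stmn1 at 397 (2098 to 2447) and Cdk2 at 2268 (804 to 937). Plk1 stood at 3621 on tip array 1 of experiment 2 (3013 to 3105). Outside the genes, the median of 9 hybridisation control probe sets was at least 18180 on every tip array and between 3864 and 9632 on the lung arrays.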

How the results depend on the processing

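Of 207 values of the 10 called members under alternatives, 162 passed in the same direction, 45 did not pass and 0 reversed; 7 members passed under all 4 other scalings. Among the 4 scalings 1 used the deposited values without rescaling. Their trimmed means already lay between 1500.58 and 1501.18, so it repeats the main fit and its passes in these counts are no separate check. Against 4 higher members there were 2 with quantile normalization, 1 with median centring, 2 with cyclic loess, 2 with no filter, 2 with the stricter filter, 1 and 2 with floors at 1244 and 792, 2 with array 1 alone and 1 with array 2 alone. Without each RNA in turn there were 0 to 6. Against 6 lower members there were 13 with median centring and 3 with the floor at 1244, and 1 to 11 without each RNA in turn. When every probe set was counted, 5 were higher and 6 lower. The gap between replication and mitotic medians, 0.34, was 0.24, 0.46 and 0.14 with quantile normalization, median centring and cyclic loess, 0.41 and 0.31 with offsets of 1% and 33%, 0.30 and 0.40 with the floors, 0.48 with array 1 alone, 0.12 over tested probe sets, 0.10 with the other mitotic class and 0.36 without array 2 of the tip RNA of experiment 1, an alternative chosen after seeing the data. Without each RNA it was 0.0637 to 0.47. The cause of these shifts was not tested. With the experiment as a replicate block 4 were higher and 7 lower, the one added call being Mki67, and the gap was 0.34; over all probe sets 2452 passed in place of 2106, and 349 and 556 without the lung RNA of experiment 1 and 2. Signal over background limits the dim members: 7 lay under the filter.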
